A study of Mus musculus with 6 samples.

Results

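The 10 genes described here encode the alpha class (Gsta1, Gsta2, Gsta3 and Gsta4), pi class (Gstp1 and Gstp2) and theta class (Gstt1, Gstt2 and Gstt3) glutathione transferases of the mouse, together with the microsomal transferase Mgst1. They were chosen by name, and each was found in the count table through its Ensembl identifier and a GENCODE annotation of GRCm39, as 10 of 55357 genes. RNA was sequenced from the livers of wild-type C57BL6/J male mice aged 8 to 9 weeks. For 7 days the mice received either vehicle (2.5% Tween-80) or esculetin, a plant coumarin, by oral gavage. Both groups ate a control diet (10% of kcal from fat) for 4 days, then a high-fat diet (HFD, 60% of kcal from fat) until day 7, so neither group stayed on control diet. Each library was a pool of livers from 2 mice, and there were 3 libraries per group. The sample names and the treatment protocol give 180 mg/kg/d of esculetin, whereas the treatment field of the same samples gives 90 mg/kg/d. The treated libraries are therefore called the esculetin group without a dose.

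Glutathione transferases join the tripeptide glutathione to electrophilic drugs, carcinogens and products of lipid peroxidation, which makes these compounds more soluble and ready for export from the cell. The alpha, pi and theta enzymes are soluble proteins with a common fold, whereas MGST1 belongs to an unrelated family that sits in the membranes of the endoplasmic reticulum and mitochondria. Hepatocytes are rich in transferases, and several of the genes are known targets of the stress-responsive transcription factor NRF2 and of nuclear receptors that sense foreign compounds.

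Some members are near-identical copies of each other or of neighbouring genes, which limits how short reads can be assigned, and the stretches below are shown for that reason. The first 90 coding bases of Gsta1 were identical to those of Gsta2 and differed at 1 base from those of Gsta13, another alpha gene of the same cluster on chromosome 9. They are taken from GENCODE transcripts of GRCm39, and capitals mark the base at which Gsta1 and Gsta13 differ.
Gsta1: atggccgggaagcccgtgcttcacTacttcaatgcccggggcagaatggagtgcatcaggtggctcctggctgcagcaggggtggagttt
Gsta2: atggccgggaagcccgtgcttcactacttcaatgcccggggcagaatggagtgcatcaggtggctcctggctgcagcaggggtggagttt
Gsta13: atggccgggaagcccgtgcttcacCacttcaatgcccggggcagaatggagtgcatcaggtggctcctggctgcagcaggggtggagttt

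Over the whole coding sequence Gsta1 was 97.5% identical to Gsta2 and 99.7% identical to Gsta13. Of the 737 windows of 150 bases, the length of 1 read, in the canonical Gsta1 transcript, 536 (72.7%) occurred unchanged in Gsta2, Gsta5 or Gsta13. For Gsta2 the share was 25.4%. Gsta3 and Gsta4 had no such window, and their coding sequences were 74.0% and 66.0% identical to that of Gsta1. The pi genes formed a second close pair, with coding sequences that were 98.1% identical. Within the first 90 coding bases Gstp1 and Gstp2 differed at 6 positions, which are in capitals below.
Gstp1: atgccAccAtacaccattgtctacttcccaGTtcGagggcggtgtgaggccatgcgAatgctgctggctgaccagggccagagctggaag
Gstp2: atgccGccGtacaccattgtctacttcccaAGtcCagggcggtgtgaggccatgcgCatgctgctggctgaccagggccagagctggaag

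Gstp1 shared 37.2% of its windows with Gstp2 or the pseudogene Gstp-ps, and Gstp2 shared 48.6% with Gstp1 or Gstp-ps. Gstt3 shared 25.9% with Gm20441 and Gm66470, gene models that overlap its locus. Gstt1, Gstt2 and Mgst1 had no shared window, and the theta coding sequences were 60.7% to 75.5% identical to each other. How reads that fit several genes were counted is not given in the sources used here, so counts of Gsta1, Gsta2, Gstp1, Gstp2 and Gstt3 are uncertain to the extent that their sequence is shared.

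Promoters were looked up because transferase genes are known targets of NRF2, of the aryl hydrocarbon receptor and of C/EBP factors. RefSeq promoters on GRCm38.p6 were at hand for 8 of the 10 members, not for Gsta4 and Gstt2. The windows ran from 250 bases before to 50 bases after each start, and both strands were searched for the core of the antioxidant response element (TGACNNNGC), the core of the dioxin response element (GCGTG) and a C/EBP core (TTGCNNAA). Among all 32851 promoters of this kind, 12.4% held the first, 32.4% the second and 10.8% the third. The 150 bases before the start are printed for the members with a match, with matched letters in capitals.
Gsta3 promoter, chr1:21240435-21240584, plus strand: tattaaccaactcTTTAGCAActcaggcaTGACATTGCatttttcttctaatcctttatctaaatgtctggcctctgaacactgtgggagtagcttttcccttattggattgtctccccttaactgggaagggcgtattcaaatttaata
Mgst1 promoter, chr6:138140377-138140526, plus strand: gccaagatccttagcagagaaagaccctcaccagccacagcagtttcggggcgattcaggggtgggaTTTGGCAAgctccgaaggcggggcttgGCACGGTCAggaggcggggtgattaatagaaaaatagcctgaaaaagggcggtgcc
Gstt1 promoter, chr10:75797732-75797881, minus strand: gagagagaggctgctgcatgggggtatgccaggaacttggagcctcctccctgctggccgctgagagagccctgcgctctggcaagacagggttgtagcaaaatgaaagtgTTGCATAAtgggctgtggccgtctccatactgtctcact
Gsta1 promoter, chr9:78230519-78230668, plus strand: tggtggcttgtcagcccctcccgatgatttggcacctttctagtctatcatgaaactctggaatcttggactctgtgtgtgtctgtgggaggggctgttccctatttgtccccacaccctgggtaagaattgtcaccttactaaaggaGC
Gsta2 promoter, chr9:78347146-78347295, minus strand: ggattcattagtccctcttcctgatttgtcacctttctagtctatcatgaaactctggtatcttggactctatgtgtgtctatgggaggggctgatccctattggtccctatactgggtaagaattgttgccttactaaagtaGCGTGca
Gstp1 promoter, chr19:4037913-4038062, minus strand: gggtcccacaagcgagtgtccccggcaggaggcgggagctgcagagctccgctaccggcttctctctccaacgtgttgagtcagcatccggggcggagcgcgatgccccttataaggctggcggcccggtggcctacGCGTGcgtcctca

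Gsta3 held the antioxidant response element core with its first base 121 bases before the start, and Mgst1 held it at 56 bases before the start on the opposite strand. Both also held the C/EBP core, and Gstt1 held the C/EBP core alone, at 39 bases before the start. Gsta1, Gsta2 and Gstp1 held the dioxin response element core close to the start, which in Gsta1 runs past the printed end. None of the 3 motifs was in the windows of Gstt3 or Gstp2, or in that of a second annotated start of Mgst1. These matches describe letters only and are not evidence of binding.

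The libraries held 27957713 to 34920922 counts, and the esculetin libraries were all the deeper ones. Counts were scaled to a common library size (CPM) with TMM factors of 0.979 to 1.02, and 3 counts correspond to 0.0864 to 0.109 CPM. The 8 hepatocyte markers summed to between 89630 and 93316 CPM with vehicle and between 86397 and 95424 CPM with esculetin, and 0 of them were called. Summed markers of Kupffer, endothelial and stellate cells overlapped between the groups, with 0 genes called. The Kupffer marker Cd68 was lower without overlap (log2 fold change -0.37, unadjusted p = 0.0225, edgeR). Of the 7 Kupffer markers 1 had a log2 fold change above 0. The 6 cholangiocyte markers summed to 39.7 to 80.8 CPM with vehicle and 30.7 to 45.9 CPM with esculetin, and Spp1 was lower with esculetin. The other 4 cholangiocyte markers tested were not called and had log2 fold changes above 0, with a median of 0.24 over the 5. Cd79a and S100a9, markers of lymphocytes and neutrophils, were called higher, but their groups overlapped and their levels were low. The means were 0.383 and 0.813 CPM with vehicle and 0.835 and 1.61 CPM with esculetin. Alas2, a red cell marker, was lower without overlap (88.9 to 75.5 CPM on average) and was not called. Of the 6 blood markers tested, 5 had log2 fold changes above 0. Blood markers summed to 125 to 151 CPM with vehicle and 112 to 172 CPM with esculetin. Of the pancreatic acinar markers 4 of 5 (Prss2, Cpa1, Pnlip and Amy2a5) were at 0 in every library, Cela2a was lower with esculetin, and Lep was the 1 adipocyte marker at 0. Pericentral hepatocyte genes summed to 10531 to 11682 CPM with vehicle and 11333 to 13106 CPM with esculetin. Periportal genes summed to 10395 to 10658 CPM with vehicle and 11115 to 12030 CPM with esculetin, without overlap. Of the 9 pericentral genes, Axin2 was called lower, and Lgr5 was lower but not called (unadjusted p = 0.0360, edgeR). In all, 3 of these 9 had log2 fold changes above 0, with a median of -0.025. Of the 9 periportal genes 6 were above 0, with a median of 0.12. The part of any of these in the results below was not tested. In bulk libraries, fewer cells of a type and less RNA per cell cannot be told apart.

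Across the family, 4 members rose with esculetin and 0 fell. The genes that rose were Gsta2, Gsta4, Gstt2 and Gstt3, with fold changes between 1.57 and 2.83. Gsta3, Gstt1 and Mgst1 were higher by smaller folds of 1.20 to 1.39, and the pi genes Gstp1 and Gstp2 did not pass the test. A gene was called when the unadjusted p-value of edgeR's quasi-likelihood test was under 0.05 and the fold change was over 1.5, and 9 of the 10 members had enough counts to be tested. The 4 calls among 9 members stand beside 452 called genes among 14433 tested (3.13%), with 1.37% of all genes tested called in the upward and 1.76% in the downward direction. An unadjusted p-value under 0.05 was reached by 7 of the 9 members, all higher, compared with 11.9% of all genes (6.53% higher and 5.32% lower). The median log2 fold change was 0.47 over the 9 members and -0.0080 over all genes.

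**Figure D1:**
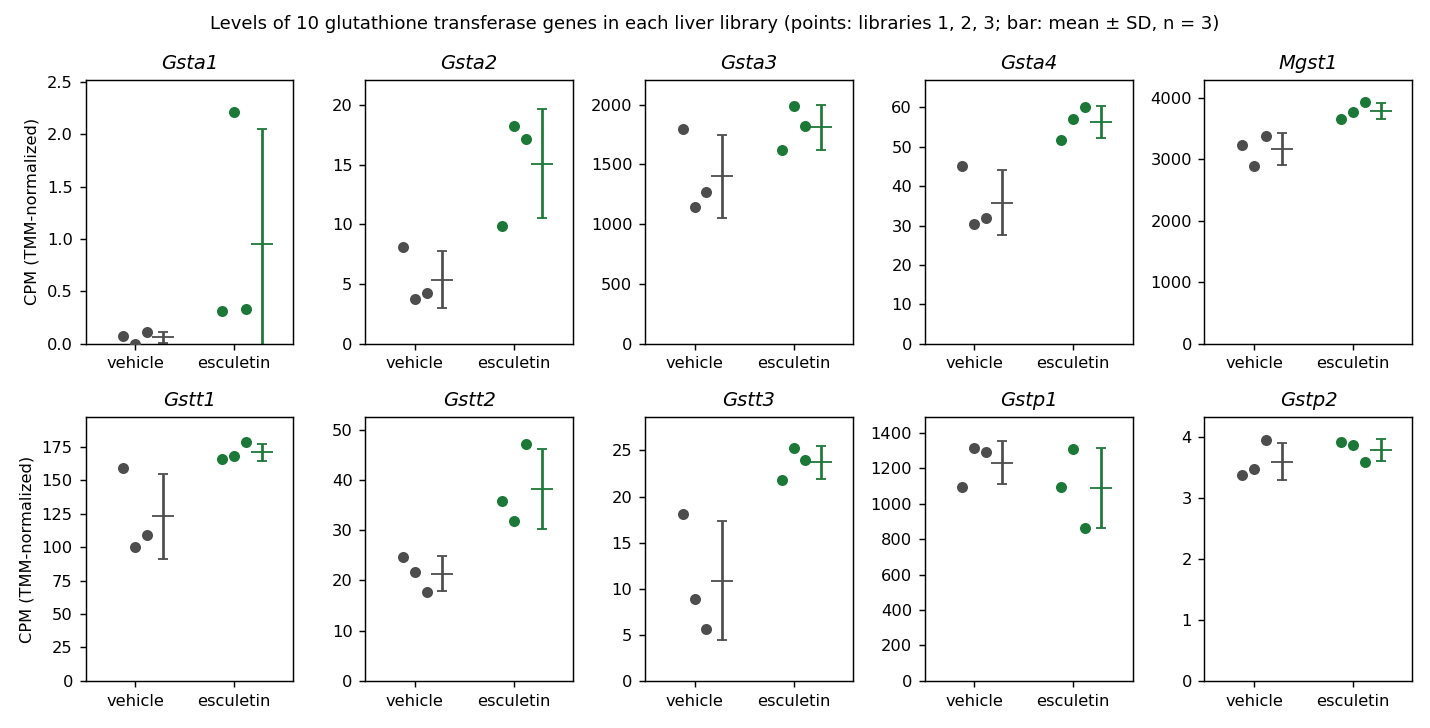
Each panel plots the normalized level of 1 gene in CPM on a linear axis that starts at 0, with 1 point for each of the 3 libraries per group and a bar for the mean and SD (the lower end of the Gsta1 bar in the esculetin group is cut at 0). In 7 of the 10 panels every esculetin point lies above every vehicle point, and Gsta3, Gstp1 and Gstp2 are the panels where the groups overlap.

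After adjustment over all genes tested by the Benjamini-Hochberg method, 0 members had an adjusted p-value under 0.05 with edgeR, and the lowest was 0.132. Of all genes tested, 6 did (0.0416%). With DESeq2 there were 2 such members, Gstt2 and Gsta4, among 193 such genes, and with limma-voom there were 0 members among 5 genes. All esculetin libraries lay above all vehicle libraries for 7 of the 10 members (6 of the 9 tested), against 9.2% of the genes tested. The opposite order was seen for 0 members and for 8.24% of the genes tested.

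The alpha genes tested had fold changes from 1.29 to 2.83. GSTA2 is the classical inducible alpha enzyme, active on lipid hydroperoxides, and its gene lies at chr9:78238292-78263077 on the minus strand. Gsta2 was measured at 8.10, 3.71 and 4.23 CPM in vehicle libraries 1, 2 and 3, and at 9.88, 18.3 and 17.2 CPM in esculetin libraries 1, 2 and 3. All esculetin values lay above all vehicle values, although vehicle 1 and esculetin 1 came close to each other. The mean rose from 5.35 ± 2.40 to 15.1 ± 4.56 CPM (SD, n = 3), a fold change of 2.83 with a 95% confidence interval of 1.75 to 4.57. On the log2 scale the change was 1.5 (SE 0.31, unadjusted p = 0.000718, adjusted p = 0.136, edgeR). Because of the shared sequence described above, the counts of Gsta1 and Gsta2 were also added together and tested as 1 gene, which gave a log2 fold change of 1.57 (SE 0.32, unadjusted p = 0.000626, adjusted p = 0.136, edgeR). With Gsta5 and Gsta13 included, the sum was 5.47 ± 2.47 CPM with vehicle and 16.6 ± 5.51 CPM with esculetin (SD, n = 3), and it was higher in every esculetin library (two-sided exact permutation p = 0.1, the smallest that 3 against 3 allows).

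Gsta1, at chr9:78137927-78149966 on the plus strand, encodes an enzyme closely similar to GSTA2. It was close to the detection limit and was left out of the test by the filter on low counts. The counts were 2, 0 and 3 in the vehicle libraries and 10, 77 and 11 in the esculetin libraries. These sum to 5 and 98 counts, of which esculetin 2 held most. The levels were 0.0591 ± 0.0552 and 0.952 ± 1.10 CPM (SD, n = 3), with every vehicle value at or under 0.109 CPM and every esculetin value at or above 0.311 CPM (two-sided exact permutation p = 0.1). Since the vehicle libraries held 0 to 3 counts, no fold is given. Gsta13, the closest copy, held 4, 0 and 0 counts with vehicle and 11, 29 and 8 counts with esculetin, and Gsta5 held 0 to 4 counts in every library. Expressed against Gsta2, the counts of Gsta1 came to 0 to 2.59% with vehicle and 1.91% to 12.1% with esculetin, so the ratios overlapped.

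Gsta3 supplied nearly all of the alpha class transcript. Its product is the main constitutive alpha transferase of mouse liver and is known for detoxifying the epoxide of aflatoxin B1, and its gene lies apart from the other alpha genes at chr1:21310806-21335885 on the plus strand. Gsta3 reached 1793, 1139.6 and 1268 CPM with vehicle and 1617, 1991 and 1824 CPM with esculetin. The groups overlapped because vehicle 1 exceeded esculetin 1, while vehicle 2 and vehicle 3 lay below all esculetin libraries. The mean was 1400.1 ± 346 CPM with vehicle and 1811 ± 187 CPM with esculetin (SD, n = 3). The log2 fold change of 0.37 (SE 0.16) had an unadjusted p = 0.0403 and an adjusted p = 0.393 (edgeR), and the fold change of 1.29 stayed under the threshold of 1.5. The unadjusted p-value was above 0.05 when vehicle 2, vehicle 3, esculetin 2 or esculetin 3 was left out (log2 fold changes 0.25, 0.31, 0.30 and 0.37), or when total counts replaced TMM (0.35).

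GSTA4 conjugates 4-hydroxynonenal, a toxic aldehyde from lipid peroxidation, and its gene lies at chr9:78090056-78117763 on the plus strand, in the same cluster as Gsta1 and Gsta2. Gsta4 levels were 45.2, 30.4 and 31.9 CPM with vehicle and 51.8, 57.0 and 60.0 CPM with esculetin. There was no overlap, and esculetin libraries 2 and 3 were the highest, as they were for Gsta2. Gsta4 rose from 35.8 ± 8.15 to 56.3 ± 4.15 CPM (SD, n = 3). This was a log2 fold change of 0.65 (SE 0.14, unadjusted p = 0.00108, adjusted p = 0.152, edgeR). The fold change of 1.57 lay just over the threshold, and without vehicle 2 or vehicle 3 it no longer reached 1.5 (log2 fold changes 0.55 and 0.58), with unadjusted p-values that remained under 0.05.

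The theta genes lie next to each other on chromosome 10 and were all higher with esculetin. GSTT1 acts on small halogenated compounds such as dichloromethane, and its gene is at chr10:75618994-75634445 on the minus strand. Gstt1 was measured at 159, 100.3 and 109 CPM with vehicle and at 166, 168 and 178 CPM with esculetin. Vehicle 1 lay just under the lowest esculetin library, and the esculetin libraries were close together. The mean was 123 ± 31.6 CPM with vehicle and 171 ± 6.64 CPM with esculetin (SD, n = 3). The log2 fold change was 0.47 (SE 0.15, unadjusted p = 0.0106, adjusted p = 0.265, edgeR), a fold change of 1.39 that was not called.

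Gstt2, at chr10:75666948-75673258 on the minus strand, had the smallest p-value of the members, and GSTT2 is known for its activity on aryl sulfates. The Gstt2 levels were 24.7, 21.7 and 17.7 CPM with vehicle and 35.7, 31.8 and 47.1 CPM with esculetin. The groups were well separated, with esculetin 3 the highest and vehicle 3 the lowest. Gstt2 rose from 21.4 ± 3.52 to 38.2 ± 7.96 CPM (SD, n = 3), a fold change of 1.79. As a log2 fold change this was 0.84 (SE 0.16, unadjusted p = 0.000429, adjusted p = 0.132, edgeR), and it stayed between 0.66 and 0.96 when any 1 library was left out.

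Gstt3, at chr10:75609940-75617256 on the minus strand, encodes a further theta enzyme beside Gstt1. Its levels were 18.1, 8.83 and 5.65 CPM with vehicle and 21.8, 25.3 and 23.9 CPM with esculetin. The vehicle libraries were spread 3.20-fold from lowest to highest, whereas the esculetin libraries were spread 1.16-fold. Gstt3 rose from 10.8 ± 6.45 to 23.7 ± 1.75 CPM (SD, n = 3), a fold change of 2.18. Fitted on the log2 scale, the change was 1.13 (SE 0.32, unadjusted p = 0.00592, adjusted p = 0.238, edgeR). It was 1.70 without vehicle 1 and 0.82 without vehicle 3. Relative to Gstt1, the counts of Gstt3 amounted to 5.17% to 11.4% with vehicle and 13.2% to 15.0% with esculetin, without overlap (two-sided exact permutation p = 0.1). Relative to Gstt1, the counts of Gstt2 overlapped between the groups, at 15.6% to 21.6% and 18.9% to 26.5%. Gm20441, whose model overlaps Gstt3, held 0 counts in every library.

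**Figure D2:**
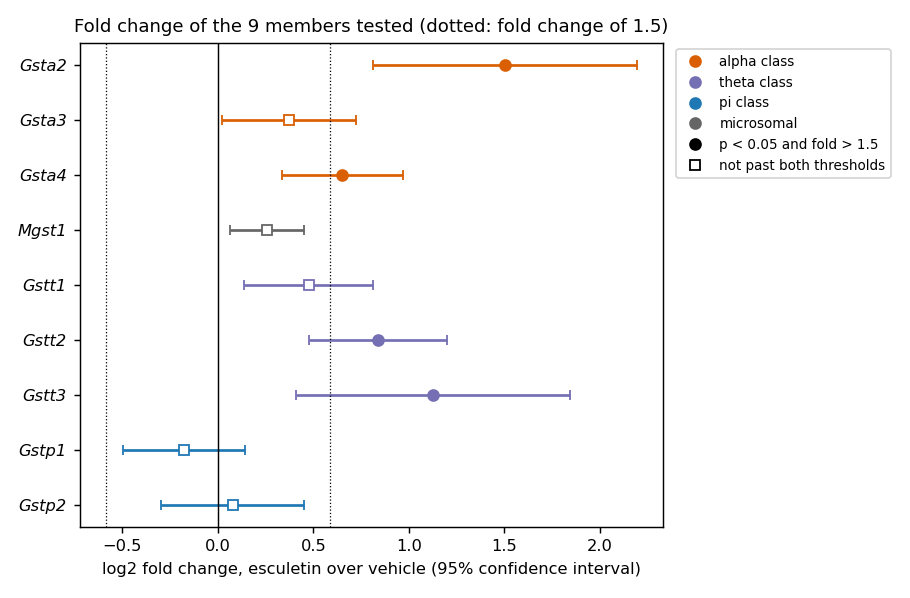
The log2 fold change (esculetin over vehicle) of each of the 9 members tested is plotted with its 95% confidence interval, coloured by class, and filled circles mark p under 0.05 with a fold change over 1.5. The filled points are Gsta2, Gsta4, Gstt2 and Gstt3, the intervals of Gsta3, Gstt1 and Mgst1 lie above 0, and those of Gstp1 and Gstp2 span 0.

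Mgst1 was the most abundant member, and its change was small but even across libraries. MGST1 combines transferase and peroxidase activity, and its gene lies at chr6:138117314-138133774 on the plus strand. The levels were 3229.7, 2885 and 3384 CPM with vehicle and 3656, 3775 and 3926 CPM with esculetin. Every esculetin library exceeded every vehicle library. The mean was 3166 ± 255 CPM with vehicle and 3786 ± 135 CPM with esculetin (SD, n = 3), and the log2 fold change was 0.26 (SE 0.086, unadjusted p = 0.0139, adjusted p = 0.292, edgeR). The fold change of 1.20 was under the threshold, and without vehicle 2 the unadjusted p was 0.0636. Among the other microsomal genes, Mgst3 rose from 3.71 ± 1.48 to 6.44 ± 0.488 CPM (SD, n = 3), with a log2 fold change of 0.79 (SE 0.26, unadjusted p = 0.0117, adjusted p = 0.276, edgeR). Mgst3 was not called without vehicle 3. Mgst2 held 2 to 12 counts per library and was not tested.

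Neither pi gene passed the test. GSTP1 is the major pi enzyme and in mouse liver is known to be more abundant in males, and its gene lies at chr19:4085405-4088068 on the minus strand. Gstp1 was measured at 1092, 1313 and 1292 CPM with vehicle and at 1092, 1311 and 862 CPM with esculetin. Esculetin 1 and esculetin 2 lay within the range of the vehicle libraries, and esculetin 3 was the lowest of all 6. The mean was 1232 ± 122 CPM with vehicle and 1088 ± 225 CPM with esculetin (SD, n = 3). The log2 fold change was -0.18 (SE 0.14, unadjusted p = 0.238, adjusted p = 0.665, edgeR), and the 95% confidence interval of the fold change ran from 0.708 to 1.10. Without esculetin 2 the log2 fold change was -0.33 (unadjusted p = 0.0309, edgeR) and without esculetin 3 it was -0.034. A rise of the size seen for the called alpha and theta genes lay outside this interval.

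Gstp2, at chr19:4090285-4096023 on the minus strand, encodes a close copy of GSTP1. Its levels were 3.37, 3.47 and 3.94 CPM with vehicle and 3.92, 3.86 and 3.58 CPM with esculetin. The groups overlapped, with means of 3.59 ± 0.304 and 3.79 ± 0.179 CPM (SD, n = 3). The log2 fold change was 0.077 (SE 0.17, unadjusted p = 0.653, adjusted p = 0.899, edgeR), with a fold change of 1.06 (95% confidence interval 0.815 to 1.37). Gstp2 counts were 0.264% to 0.309% of those of Gstp1 with vehicle and 0.294% to 0.416% with esculetin. The pseudogene Gstp-ps held 6.67% to 7.35% of the Gstp1 count with vehicle and 7.82% to 8.30% with esculetin, without overlap (two-sided exact permutation p = 0.1), although its own log2 fold change was -0.014 (unadjusted p = 0.911, edgeR). Gstp3 had a log2 fold change of 0.13 (SE 0.14, unadjusted p = 0.382, edgeR).

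Levels can be compared between genes only per length of transcript, for which CPM per kb of the canonical transcript was used. With vehicle, Mgst1 stood first at 2652 ± 214 CPM per kb (SD, n = 3). Gstp1 followed at 1363 ± 135 and Gsta3 at 956 ± 236 CPM per kb, and in vehicle 1 Gsta3 was not below Gstp1 (23.2% and 22.9% of the summed level of the 10 members). Gstt1 was next at 71.5 ± 18.4 CPM per kb, followed by Gsta4 at 17.0 ± 3.87 CPM per kb. Gstt2 (8.24 ± 1.36 CPM per kb), Gsta2 (5.87 ± 2.63), Gstt3 (5.74 ± 3.41) and Gstp2 (4.45 ± 0.376) followed, and neighbours among these 4 did not differ beyond their spread. Gsta1 was last at 0.0667 ± 0.0623 CPM per kb.

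With esculetin the order at the top was Mgst1 (3171 ± 113 CPM per kb), then Gsta3 (1237 ± 128) and Gstp1 (1204 ± 249), and the latter pair did not differ beyond their spread. Their order depends on the length used. With the union of all annotated exons in place of the canonical transcript, Gstp1 held 28.8% ± 3.64 of the summed level with vehicle and 22.5% ± 3.86 with esculetin, above Gsta3 at 9.30% ± 2.15 and 10.7% ± 0.682 (SD, n = 3). In vehicle 1 Gsta3 was then at 11.8% and Gstp1 at 25.2%. Further down, Gsta2 reached 16.6 ± 5.01, Gstt2 14.7 ± 3.07 and Gstt3 12.5 ± 0.927 CPM per kb, so that these 3 lay above Gstp2 at 4.69 ± 0.222 CPM per kb.

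As a share of the summed CPM per kb of the 10 members, again by canonical transcript length, Mgst1 made up 52.1% ± 1.81 with vehicle and 54.9% ± 3.29 with esculetin (SD, n = 3). Gstp1 made up 26.9% ± 3.90 with vehicle and 20.7% ± 3.52 with esculetin. Gsta3 made up 18.7% ± 3.86 and 21.3% ± 1.20, and Gstt1 1.40% ± 0.305 and 1.72% ± 0.119. Each of these 4 shares overlapped between the groups (two-sided exact permutation test, p = 0.2 for Mgst1 and Gstp1, 0.4 for Gsta3 and 0.3 for Gstt1). The called genes Gsta2, Gsta4, Gstt2 and Gstt3 together held a small part, with Gsta4 the largest of them at 0.333% ± 0.0633 with vehicle and 0.462% ± 0.0347 with esculetin.

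**Figure D3:**
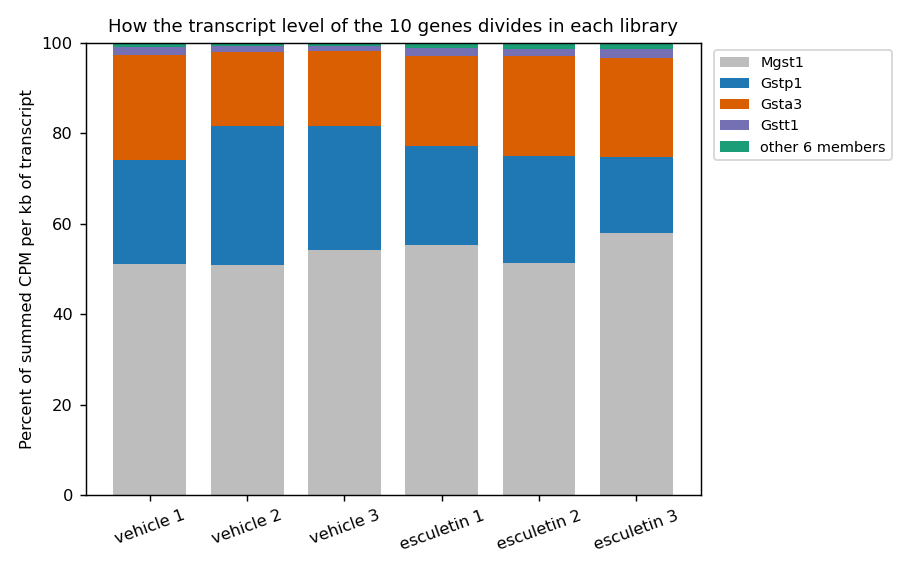
Each bar is 1 library and divides the summed CPM per kb of the 10 members into percent held by Mgst1, Gstp1, Gsta3, Gstt1 and the other 6 members. Mgst1 held 51.0% to 58.0% in every library, and Gstp1 ranged from 16.8% in esculetin 3 to 30.6% in vehicle 2.

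Summed within a class on the same scale, the theta genes went from 111.7, 71.4 and 73.5 CPM per kb with vehicle to 121.7, 123.7 and 134.6 with esculetin, a ratio of means of 1.48. The alpha genes went from 1255, 797 and 886 CPM per kb to 1141, 1409 and 1293, a ratio of 1.31 with overlap (two-sided exact permutation p = 0.2). The alpha sum follows Gsta3, whose level was far above those of the other alpha genes. The pi sum was 1367 ± 135 CPM per kb with vehicle and 1209 ± 249 with esculetin (SD, n = 3; two-sided exact permutation p = 0.6). All 10 members together summed to 5084 ± 298 CPM per kb with vehicle and 5787 ± 322 with esculetin (SD, n = 3), higher in each esculetin library, with a ratio of 1.14 (two-sided exact permutation p = 0.1, the smallest possible).

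Vehicle library 1 held higher levels of many of these genes than the other vehicle libraries. It was the highest of the vehicle libraries for 6 of the 7 alpha and theta members, while vehicle 2 was the lowest for 5 of them and vehicle 3 for 2. Over all 9 members tested it was the highest for 6, against 33.4% of all genes tested. In the lists described below it was the highest for 12 of 16 NRF2 targets, 7 of 11 transferases of other classes, 10 of 19 genes of glutathione supply, 7 of 19 regulators and 4 of 12 export genes. Without vehicle 1, 6 of the 9 members tested with all libraries were called, namely Gsta2, Gsta3, Gsta4, Gstt1, Gstt2 and Gstt3, beside 495 of 14788 genes (3.35%), and their median log2 fold change was 0.70. Gsta1 is not counted, since it enters that fit only through its esculetin counts. The log2 fold changes were then 1.93 for Gsta2, 0.59 for Gsta3, 0.85 for Gsta4, 0.70 for Gstt1 and 0.96 for Gstt2. Adjusted p-values were under 0.05 for Gsta2, Gsta4, Gstt1 and Gstt3 in that fit (edgeR), as they were for 45 of all genes tested. The log2 fold change of Mgst1 was 0.27 there. Vehicle 1 was the highest vehicle library for 6 of the 7 alpha and theta members. Leaving it out therefore favours larger fold changes for them, so this fit is not separate support. Why this library differed was not tested.

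Gstt2 was used to look for genes of a similar pattern, by Pearson's r of log2 CPM over the 6 libraries among 7233 genes with a mean of at least 10 CPM. The closest were Rnf130 (r = 0.986), Zfp874a (0.984), Serpina7 (0.984), Etfa (0.981) and Mrpl33 (0.978). These values rest on 6 points and include the group difference itself. Of the 5 genes Serpina7, which encodes thyroxine-binding globulin, had the widest change, from 25.7 to 58.6 CPM on average.

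Other genes of the pathway were read from fixed lists in the same fit. Transferases of the mu, omega, zeta, kappa and sigma classes had 11 of 12 genes tested. Of the 11, 3 were called higher and 0 lower, against 1.37% and 1.76% of all genes tested. Those called were Gstm1 (log2 fold change 1.45, adjusted p = 0.00669, edgeR), Gstm2 (0.65) and Gstm3 (0.99). At an unadjusted p under 0.05, 8 of the 11 were higher, against 6.53% of all genes tested. The median log2 fold change of that list was 0.34. NRF2 targets outside the transferases had 16 of 18 tested, with a median of 0.32. At an unadjusted p under 0.05, 8 of the 16 were higher, against 6.53% of all genes tested. Of the 16 only Nqo1, a quinone reductase, was called, where 3.13% of all genes tested were. Without vehicle 1 Cbr3 and Ephx1 were called as well. Nqo1 rose from 3.09 ± 1.20 to 8.00 ± 1.43 CPM (SD, n = 3), with a log2 fold change of 1.37 (SE 0.26, unadjusted p = 0.000367, adjusted p = 0.132, edgeR).

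Genes that make, recycle and break down glutathione had a median near 0. Of 19 tested out of 22, 4 were higher and 1 was lower at an unadjusted p under 0.05 (11.9% of all genes reached this in either direction), and the median log2 fold change was 0.047. There was 1 gene called, against 3.13% of all genes tested. It was Dpep1, a dipeptidase that cleaves cysteinylglycine, at 0.244 CPM with vehicle and 0.592 CPM with esculetin on average (log2 fold change 1.26, SE 0.50, unadjusted p = 0.0318, edgeR). With DESeq2, or with genes restricted to at least 10 counts in every library, 0 genes of this list were called, and Dpep1 was not called without vehicle 2, vehicle 3 or esculetin 2, or with the replicate number as a block. Chac1, which encodes an enzyme that degrades glutathione, had a log2 fold change of 0.93 (unadjusted p = 0.246, edgeR) and was called with limma-voom, without a filter, without vehicle 3 and with the block. For export of conjugates and the mercapturate route, all 12 genes were tested and the median log2 fold change was -1.5e-05, but Abcc3 rose. Abcc3, which encodes a basolateral exporter of glucuronide and other conjugates, went from 83.6 ± 23.4 to 188 ± 24.9 CPM (SD, n = 3), with a log2 fold change of 1.17 (SE 0.18, unadjusted p = 6.94e-05, adjusted p = 0.0771, edgeR).

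Among 19 tested of 20 regulators known to act on transferase genes, 2 were called higher and 0 lower, with a median log2 fold change of 0.062. Of all genes tested, 1.37% were called higher and 1.76% lower. At an unadjusted p under 0.05 there were 5 higher and 1 lower, against 11.9% of all genes in either direction. Besides the called genes, the higher ones were the receptors for foreign compounds Nr1i2 (log2 fold change 0.30, unadjusted p = 0.00196, edgeR) and Nr1i3 (0.39, unadjusted p = 0.0244), and Keap1, which encodes the inhibitor of NRF2 (0.25, unadjusted p = 0.0313). The lower one was Nr3c1, which encodes the glucocorticoid receptor (-0.17, unadjusted p = 0.0432, edgeR). Cebpb, which encodes the transcription factor C/EBPβ, rose from 30.2 ± 5.35 to 45.8 ± 7.01 CPM (SD, n = 3; log2 fold change 0.60, SE 0.14, unadjusted p = 0.00211, edgeR). Maff, which encodes a small MAF protein that pairs with NRF2, rose from 4.48 ± 1.93 to 8.00 ± 2.32 CPM (SD, n = 3; log2 fold change 0.83, SE 0.32, unadjusted p = 0.0271, edgeR). The groups overlapped for Maff and were separate for Cebpb. Without vehicle 1 or without esculetin 1, neither gene was called. Maff was also not called without vehicle 3 or esculetin 3, and Cebpb was not called with total counts.

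**Figure D4:**
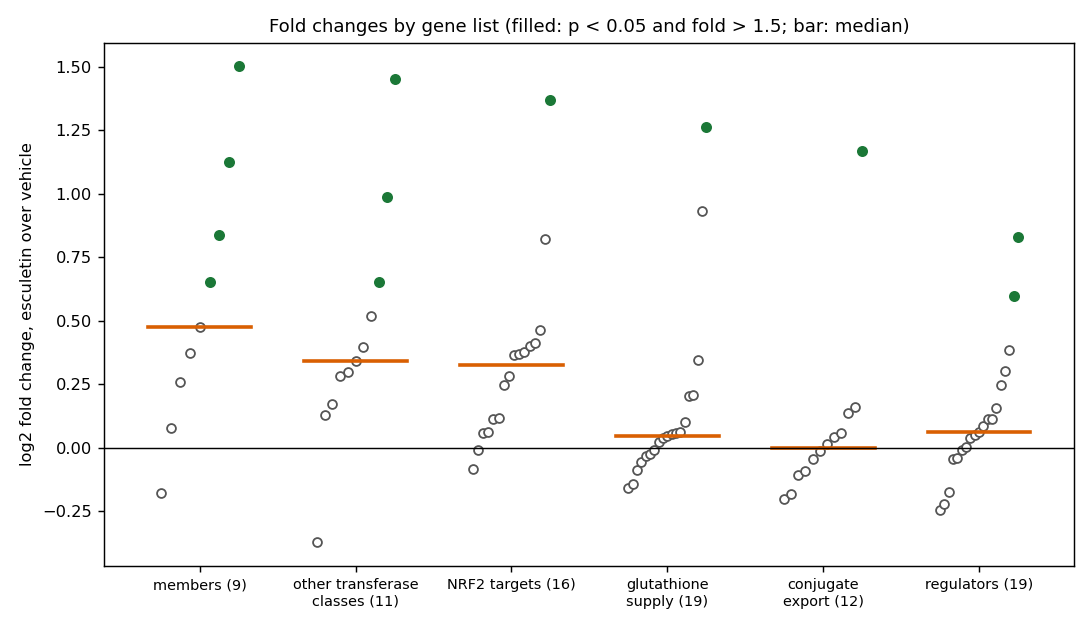
Points are log2 fold changes (esculetin over vehicle) of the genes tested in each list, with the number tested in parentheses, filled points for p under 0.05 with a fold change over 1.5 and a bar at the median. The medians are 0.47 for the members, 0.34 for the other transferase classes, 0.32 for the NRF2 targets and 0.062 for the regulators. Gclc and Gclm are plotted in both the NRF2 and the glutathione supply lists. Slc7a11 is in both lists too, but was not tested and is not plotted.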

How the data were processed

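RNA was sequenced from 6 mouse liver libraries (3 vehicle, 3 esculetin), prepared with a NEBNext Ultra kit and read as 150-base pairs. The authors aligned the reads with HISAT2 2.2.1 to GRCm39 and deposited whole-number counts per gene from featureCounts, without normalization. The processing notes also name mm10, and the annotation release, the strand setting and the treatment of multi-mapping reads are not given in the sources used here. Libraries were mapped to groups by their titles. Nothing ties same-numbered libraries, and p-values measure the spread between pools of 2 mice. Of the gene identifiers, 54749 were matched to a GENCODE symbol, and 0 value columns were left unmapped.

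Counts were filtered with filterByExpr, normalized with TMM and tested across all genes in edgeR 4.0.16 (R 4.3.3, quasi-likelihood test), and p-values were adjusted by Benjamini-Hochberg over 14433 genes. The SE of a log2 fold change was obtained by dividing it by the root of its F statistic. A gene was called at an unadjusted p under 0.05 and a fold change over 1.5. The biological coefficient of variation was 14.6%. No library was a copy of another (chi-square per gene at least 26.6 within a group). Intervals and the 3-count floor cover counting error or the spread between libraries only. The test was also run on simulated data. All members were named, as were genes of each list that were called (at most 6, by p) and the 5 genes most like the member with the smallest p. Marker genes were named where called or at 0. Chac1, Cbr3, Ephx1, Nr1i2, Nr1i3, Keap1, Nr3c1, Serpina1c, Apoa2, Cd68, Alas2 and Lgr5 were named after their values were seen. Members and lists were chosen with earlier results of these data known. Alternatives were limma-voom and limma with trend (limma 3.58.1), DESeq2 1.42.0, its size factors, thinning to the smallest total, a minimum of 10 counts per library, no filter, scaling by total counts, leaving out each library, the replicate block, summed near-identical copies, and other thresholds. Lengths over the union of exons were added after seeing the data.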

Additional observations from a re-analysis of the deposited data

How the results depend on the processing

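Members called numbered 4 (Gsta2, Gsta4, Gstt2 and Gstt3) with edgeR, limma-voom, limma with trend, DESeq2, DESeq2 size factors, total counts, at least 10 counts in every library and thinning. With near-identical copies summed there were also 4, with Gsta2 represented by its sum with Gsta1. Without a filter Gsta1 was added and, with it, 7 members and 477 genes then had an adjusted p under 0.05. A fold change over 2 left 2 members and an adjusted p under 0.05 left 0. The 452 genes called became 776 without a filter, 217 at a fold change over 2 and 6 at an adjusted p under 0.05. With DESeq2, 193 genes and 2 members had an adjusted p under 0.05.

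Leaving out 1 library gave 411 to 588 genes called, 4 to 7 members called (3 to 6 of the 9 tested with all libraries), 6 to 8 members at p under 0.05 (5 to 7 of the 9), 8 to 9 members higher (8 of the 9), and a median log2 fold change of the members of 0.44 to 0.78. The most genes were called without vehicle 3, and the most members without vehicle 1, where the median was also highest. Some of these fits tested Gsta1, which enters through its esculetin counts alone, and over the other 9 the median was 0.35 to 0.70. No direction of a member tested was reversed. With the replicate block, 399 genes and the same 4 members were called, and the median was 0.50. The numbers do not pair the libraries (correlations of deviations -0.069, -0.011 and 0.0027).

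With union exon lengths, added after seeing the data, the vehicle shares were 59.3% for Mgst1, 28.8% for Gstp1, 9.30% for Gsta3, 0.498% for Gsta4 and 0.114% for Gstp2. These shares differ from those by canonical transcript only through the length by which CPM were divided. The union was 5729 bases against 1464 for Gsta3, 2034 against 1194 for Mgst1 and 1633 against 904 for Gstp1.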
